A study of Drosophila melanogaster with 8 samples.

Results

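The cytochrome P450 family was measured in whole late embryos of Drosophila melanogaster by 83 probe sets for 81 genes, out of 11981 genes that single-gene probe sets of the array named and 18769 probe sets other than array controls. A probe set was a member when the platform's probe-to-gene table named for it a single gene with a Cyp symbol made of a family number, a subfamily letter and a gene number. Cyp1 and Cyp40, which are cyclophilins, were left out. P450 genes known by other names, such as phm and dib, were not members and are described with the related genes near the end. Cyp18a1 and Cyp12e1 had more than 1 probe set.

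The embryos came from 4 groups, each with 2 arrays. Embryos called dimm here (elav-dimm in the figures) had the genotype w;UAS-dimm2A3/+;elav-GAL4/+, and made a myc-tagged form of the transcription factor DIMMED in neurons under the pan-neuronal driver elav-GAL4, from 1 copy of the transgene. The control embryos had the genotype w;;elav-GAL4, the parental driver line. Driver and white mutant background were therefore common to all groups, while GAL4 dose, paternal chromosomes and dimm cannot be told apart in this comparison. Flies were reared at 25 °C and eggs were collected at 18 °C. Stage 14 embryos were aged 22 to 26 h after egg laying per the sample labels, with 24 h as the lower bound in the series text, and stage 16 embryos were 28 to 32 h old. Each RNA sample went onto a pair of arrays per the series text, so p-values may rest on technical spread alone.

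P450 enzymes are haem-containing monooxygenases. Most sit in the endoplasmic reticulum and some in mitochondria, and they receive electrons from a reductase, from cytochrome b5 or, in mitochondria, from ferredoxins. Insect members fall into the CYP2, CYP3, CYP4 and mitochondrial clans. Members with known roles include enzymes that make or inactivate the moulting hormone ecdysone, enzymes of cuticle and surface lipid formation, and many enzymes of the CYP3 and CYP4 clans that act on plant toxins and insecticides.

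The values are log2 signals, and every level and every difference below is on that scale unless called a fold. A value of 4 served as the line above which a probe set was taken as above background, and each array had 7574 to 7651 probe sets above it. The lowest value, called the floor here, was 2.182 on the stage 14 arrays and 2.186 on the stage 16 arrays. On the replicate 1 arrays of stage 16 the 3' probe set of the ACTIN control exceeded its 5' probe set by 8.69 in control and 8.0 in dimm embryos, against 2.93 to 4.48 on the other 6 arrays. Results that rest on these low-5' arrays are therefore also given without them. Such fits keep a single stage 16 array of each genotype, so their spread comes from the stage 14 arrays alone. For members with a constant value at stage 14 hardly any spread is left, and these fits are read mainly for the size of a difference. The dimm transcript itself lay at 2.53 to 2.86 on the 4 control arrays and at 5.51 to 8.26 on the 4 dimm arrays, a difference of 4.54 ± 0.59 (SE) over both stages (limma adjusted p = 0.0386).

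A minority of the family had a signal in these embryos, and more members did at stage 16 than at stage 14. In control embryos 17 of the 83 probe sets lay above 4 on both arrays at stage 14 and 26 did at stage 16, which is 20.5% and 31.3% of the family. In dimm embryos the counts were 18 and 29, or 21.7% and 34.9%. Over all 18769 probe sets the share was 39.9% to 40.3% in every group. In total 31 probe sets for 30 genes were above 4 on both arrays of at least 1 group. Since these are whole embryos, fewer cells of a type and less RNA per cell cannot be told apart.

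Above 4 in all 4 groups were 16 probe sets, for Cyp18a1, Cyp301a1, Cyp305a1, Cyp12a4, Cyp4g1, Cyp4d2, Cyp4e2, Cyp6a8, Cyp6a16, Cyp6d5, Cyp6u1, Cyp9f2, Cyp28a5, Cyp28d1, Cyp309a2 and Cyp310a1. Another 10 were above it in the stage 16 groups and not in both stage 14 arrays of either genotype. They were Cyp304a1, Cyp49a1, Cyp313b1, Cyp4ac3, Cyp4d1, Cyp4e1, Cyp4p2, Cyp6a13, Cyp6a23 and the second probe set of Cyp18a1. Cyp309a1 was the 1 member above 4 in the stage 14 groups alone. Cyp12c1 passed only in stage 14 dimm embryos, and Cyp6t1, Cyp9b2 and Cyp9c1 only in stage 16 dimm embryos.

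**Figure D1:**
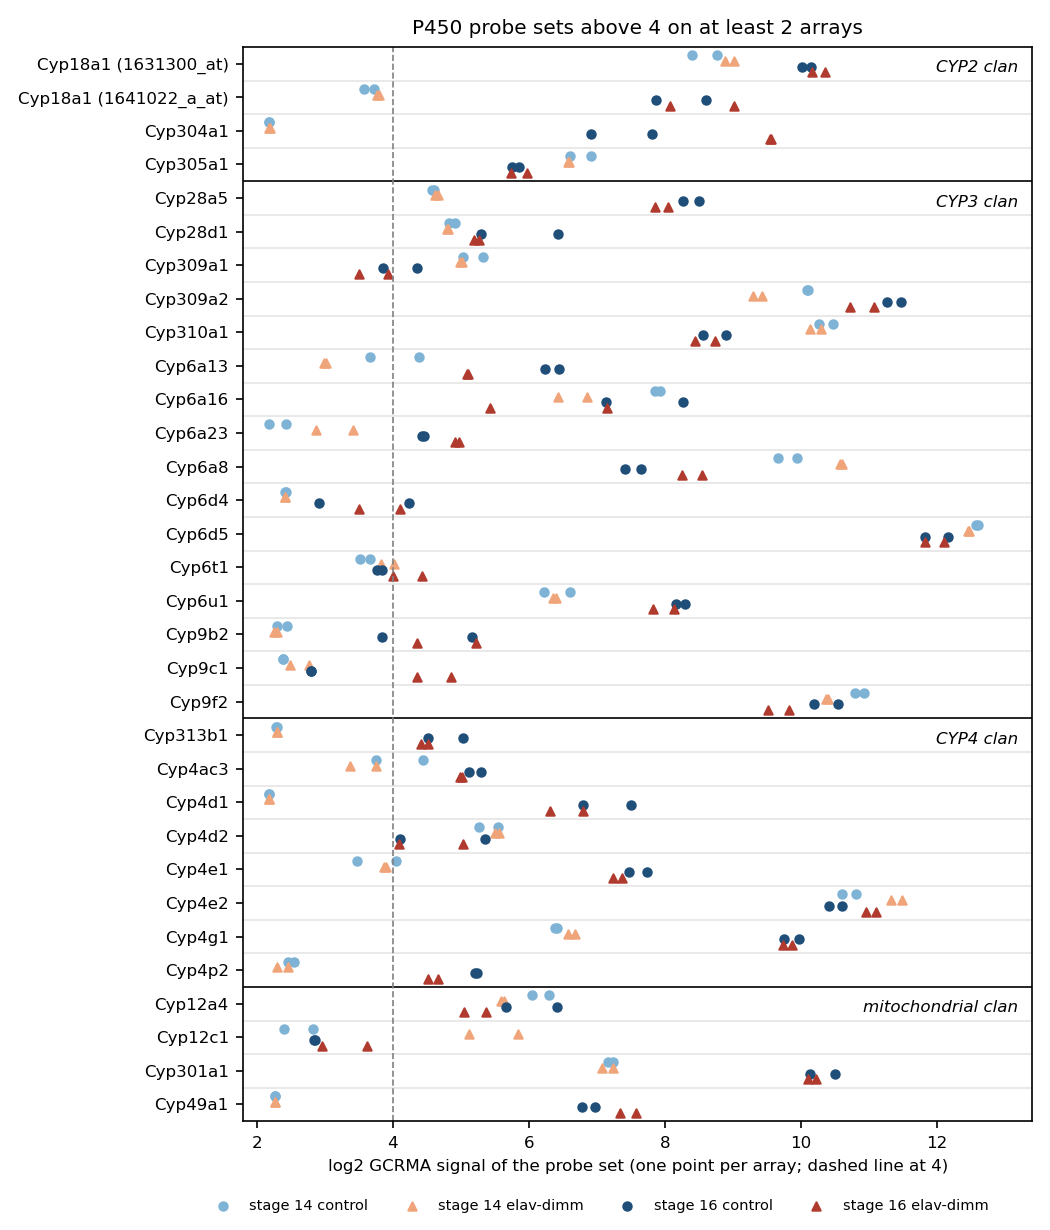
Log2 GCRMA signal of the 32 tested P450 probe sets, with 1 point for each of the 8 arrays, circles for control and triangles for dimm embryos, light colours for stage 14 and dark ones for stage 16, and a dashed line at 4. In the rows of Cyp304a1, Cyp4d1 and Cyp49a1 the light points sit near the floor and the dark ones between 6.31 and 9.56.

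Members that could be measured were counted by clan. In the CYP2 clan 4 of 5 probe sets passed the filter for testing, a value above 4 on at least 2 of the 8 arrays. In the CYP3 clan 16 of 37 (43.2%) passed, in the mitochondrial clan 4 of 9 (44.4%), and in the CYP4 clan 8 of 32 (25%). Over all probe sets 8258 of 18769 passed. The CYP2 clan has few probe sets, and 2 of the 5 are for Cyp18a1. All 5 genes of the Cyp313a subfamily sat at the floor on every array. Of the Cyp6 family 8 of 23 genes passed the filter, and of the Cyp4 family 7 of 22.

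The 51 probe sets that did not pass comprised 40 within 0.1 of the floor on all 8 arrays and 11 that were dim. At the floor throughout were several members with well-known roles: Cyp6g1, whose overproduction gives resistance to DDT and neonicotinoids, its neighbour Cyp6g2, and Cyp6a2, a gene raised in insecticide-resistant strains. Cyp6t3, which takes part in ecdysteroid production in the prothoracic gland, Cyp303a1, needed for sensory bristles, and Cyp4d21, a gene with a part in male mating, were at the floor as well. Cyp311a1, Cyp312a1 and the Cyp12d1-d probe set also lay there. The near-identical copies Cyp12d1-d and Cyp12d1-p share a further probe set that is no member. It read 5.81 and 6.10 in stage 14 control embryos and 4.87 and 4.21 in stage 14 dimm embryos, and 2.26 to 2.78 on the 4 stage 16 arrays, so at least 1 of the copies had a signal at stage 14.

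Some members lay close to the line of 4. Just inside, Cyp6t1 read 3.51 to 4.01 on 6 arrays and 4.43 and 4.0 in stage 16 dimm embryos, and Cyp6d4 passed on the replicate 2 arrays of stage 16 alone, at 4.24 in control and 4.10 in dimm embryos. Just outside, Cyp6a20, a gene linked to male aggression, read 2.34 and 2.57 in stage 14 control and 4.49 and 3.94 in stage 14 dimm embryos, and was not tested. Cyp6a22 reached 3.81, Cyp6a17, which affects temperature preference, 3.62, and Cyp6d2 3.40. Cyp6d2 and Cyp6a17 were at the floor on all 4 stage 14 arrays and above it on all stage 16 arrays. Cyp4g15 read 2.18 at stage 14 and at most 2.32 at stage 16.

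Between stage 14 and stage 16 most of the measured members changed. In control embryos 17 of the 32 tested probe sets rose and 5 fell, against 21.8% and 39% of all 8258 tested probe sets. In dimm embryos 19 rose and 8 fell, against 20.7% and 42.8%. The same 17 rose and the same 5 fell in both genotypes, no member was called in opposite directions, and 5 were called in neither. The median difference of the tested members was 1.21 in control and 1.49 in dimm embryos, beside -0.38 and -0.44 over all tested probe sets. Members that passed the filter only through their stage 16 arrays had to differ, so these counts and medians describe the tested probe sets and support nothing about the family.

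How the arrays were scaled mattered for the small falls. Centring each array on its median moved the stage differences up by 0.21 in control and 0.31 in dimm embryos. It changed the split over all tested probe sets from 1799 higher and 3224 lower to 2177 and 2471 in control embryos, and from 1713 and 3532 to 2260 and 2487 in dimm embryos. For the members it gave 20 higher and 4 lower in each genotype. The sources used here do not say whether the stages were normalised together, and quantile normalisation over the 8 arrays called 22 members in control and 25 in dimm embryos. Leaving out 1 array of stage 14 or stage 16 also ended some calls of small or dim changes, namely those of Cyp6d5 in both genotypes, of Cyp9b2 in control embryos without either stage 14 control array, and of Cyp4e2, Cyp6d4 and Cyp9f2 in dimm embryos.

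The hormone-related member Cyp18a1, which inactivates ecdysteroids by oxidising their side chain, rose on both of its probe sets. The probe set above 4 at both stages read 8.76 and 8.40 in stage 14 control, 9.02 and 8.88 in stage 14 dimm, 10.02 and 10.15 in stage 16 control and 10.17 and 10.36 in stage 16 dimm embryos. All stage 16 arrays were above all stage 14 arrays, and the difference was 1.5 ± 0.15 in control (adjusted p = 0.000531) and 1.32 ± 0.15 in dimm embryos (adjusted p = 0.000855). The other probe set read 3.58 to 3.80 on the stage 14 arrays and 7.87 to 9.01 on the stage 16 arrays, so its rise was at least 18.9-fold in control and at least 23.2-fold in dimm embryos, counting values below 4 as 4. The probe sets gave 1 direction and unlike sizes.

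Also in the CYP2 clan, Cyp304a1 lay at 2.18 and 2.18 in stage 14 control and 2.18 and 2.19 in stage 14 dimm embryos, at 6.91 and 7.81 in stage 16 control and at 9.54 and 9.56 in stage 16 dimm embryos. Every stage 14 array was at the floor and every stage 16 array was well above it. The fitted difference was 5.18 ± 0.28 in control (adjusted p = 4.73e-05) and 7.36 ± 0.28 in dimm embryos (adjusted p = 1.38e-05), and the rise was at least 10.3-fold and at least 46.8-fold. Cyp305a1 went the other way, from 6.57 to 6.91 at stage 14 to 5.73 to 5.97 at stage 16, with differences of -0.96 ± 0.14 in control (adjusted p = 0.00221) and -0.73 ± 0.14 in dimm embryos (adjusted p = 0.00595). After centring the fall in dimm embryos missed the threshold (-0.43, adjusted p = 0.0519).

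Among the mitochondrial members, Cyp301a1, which is needed for the adult cuticle, read 7.17 and 7.23 in stage 14 control and 7.24 and 7.08 in stage 14 dimm embryos, then 10.50 and 10.13 in stage 16 control and 10.10 and 10.22 in stage 16 dimm embryos. The stages did not overlap, and the rise was 3.12 ± 0.15 in control (adjusted p = 2.9e-05) and 3.0 ± 0.15 in dimm embryos (adjusted p = 3.12e-05). Cyp49a1 was at 2.27 on all 4 stage 14 arrays, at 6.78 and 6.97 in stage 16 control and at 7.34 and 7.58 in stage 16 dimm embryos. That is a rise of at least 7.33-fold in control (adjusted p = 4.82e-06) and at least 11-fold in dimm embryos (adjusted p = 3.79e-06). Cyp12a4, linked to resistance to the insecticide lufenuron, differed by -0.13 ± 0.27 in control (adjusted p = 0.686) and -0.41 ± 0.27 in dimm embryos (adjusted p = 0.223). Without the low-5' arrays it was lower at stage 16 by 0.50 in control and by 0.57 in dimm embryos. Cyp12c1 fell in dimm embryos, by 2.20 ± 0.33 (adjusted p = 0.0024), from 5.12 and 5.84 to 2.95 and 3.62. It had passed the filter only through those stage 14 dimm arrays, so it had to differ. In control embryos its difference was 0.24 ± 0.33 and did not pass, and the test of these differences against each other, given with the dimm effect, did not pass either.

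In the CYP4 clan 6 of 8 tested members rose in each genotype and 1 fell in dimm embryos. Cyp4g1, the oenocyte enzyme that carries out the final step of cuticular hydrocarbon synthesis, read 6.42 and 6.38 in stage 14 control and 6.58 and 6.68 in stage 14 dimm embryos. At stage 16 it read 9.75 and 9.97 in control and 9.74 and 9.87 in dimm embryos. The rise was 3.46 ± 0.11 in control (11-fold, adjusted p = 8.45e-06) and 3.17 ± 0.11 in dimm embryos (9.03-fold, adjusted p = 1.05e-05).

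Cyp4d1 went from 2.18 on every stage 14 array to 7.5 and 6.79 in stage 16 control and 6.79 and 6.31 in stage 16 dimm embryos, a rise of at least 8.84-fold (adjusted p = 4.48e-05) and at least 5.87-fold (adjusted p = 6.92e-05). Cyp4e1 went from 3.47 to 4.04 at stage 14 to 7.23 to 7.73 at stage 16, with a difference of 3.84 ± 0.21 in control (adjusted p = 4.35e-05) and 3.41 ± 0.21 in dimm embryos (adjusted p = 6.57e-05). Both genes thus moved from at or near the background to levels below the median of the tested probe sets. That median was 8.44 to 8.49 on the stage 16 arrays. Cyp4p2 rose from 2.29 to 2.54 to 4.52 to 5.24, and Cyp313b1 from 2.28 to 2.30 to 4.42 to 5.03, which makes rises of at least 1.51-fold and at least 1.38-fold in dimm embryos. With values below 4 raised to 4, the Cyp313b1 call in dimm embryos was lost (adjusted p = 0.065). Cyp4ac3 rose from 3.37 to 4.44 to 4.99 to 5.29, and in control embryos its call (adjusted p = 0.0125) was lost without the low-5' arrays.

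The remaining CYP4 members had a signal at both stages and small differences. Cyp4e2 read 10.60 and 10.81 in stage 14 control and 10.42 and 10.61 in stage 16 control embryos. In dimm embryos it fell by 0.38 ± 0.13 (adjusted p = 0.0448), but not after centring (adjusted p = 0.655). Leaving out the low-5' arrays also ended the call (-0.45, adjusted p = 0.0556). Cyp4d2 read 5.27 to 5.56 at stage 14, and at stage 16 it split by replicate number, with 5.36 and 5.03 on the low-5' arrays and 4.10 and 4.09 on the others. Its differences, -0.67 ± 0.49 and -0.97 ± 0.49, did not pass (adjusted p = 0.274 and 0.133). Without the low-5' arrays they were -1.3 in control and -1.44 in dimm embryos.

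The CYP3 clan held rises and falls. Cyp28a5 read 4.61, 4.57, 4.62 and 4.66 on the stage 14 arrays, 8.50 and 8.26 in stage 16 control and 8.05 and 7.85 in stage 16 dimm embryos. All stage 16 arrays lay above all stage 14 arrays, and the rise was 3.79 ± 0.12 in control (adjusted p = 8.28e-06) and 3.31 ± 0.12 in dimm embryos (adjusted p = 1.17e-05). Cyp6u1 rose from 6.22 to 6.60 to 7.82 to 8.29, by 1.82 ± 0.17 (adjusted p = 0.000395) and 1.60 ± 0.17 (adjusted p = 0.00062). Cyp309a2 rose from 9.29 to 10.10 to 10.73 to 11.47, by 1.27 ± 0.15 (adjusted p = 0.000904) and 1.54 ± 0.15 (adjusted p = 0.000398).

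Further CYP3 rises began near the background. Cyp6a13 differed by 2.31 ± 0.24 in control (adjusted p = 0.000555) and rose at least 2.14-fold in dimm embryos (adjusted p = 0.000771), from 2.99 to 4.38 at stage 14 to 5.09 to 6.44 at stage 16. Cyp6a23 rose from 2.18 to 3.42 to 4.43 to 4.97, at least 1.36-fold in control and 1.92-fold in dimm embryos. Cyp9b2 rose from 2.25 to 2.44 to 3.84 to 5.22, and Cyp9c1 and Cyp6d4 rose in dimm embryos. Cyp9c1 had passed the filter only through its stage 16 dimm arrays, so it had to differ here. Cyp6a23, Cyp9b2 and Cyp6d4 had passed it only through stage 16 arrays. The calls of Cyp9b2 and Cyp6d4 were lost when values below 4 were raised to 4. In control embryos the difference of Cyp6d4 was 1.15 (adjusted p = 0.071), and 1.81 with the low-5' arrays left out. It passed after centring and with replicate number as a block over all arrays. Cyp28d1, linked to the response to nicotine, read 4.83 and 4.91 in stage 14 control and 6.43 and 5.30 in stage 16 control embryos, where the higher value is the low-5' array, and its difference of 0.99 ± 0.35 did not pass (adjusted p = 0.0547). It passed after centring (adjusted p = 0.0332) and with replicate number as a block over all arrays (adjusted p = 0.0491). Without the low-5' arrays it was 0.42.

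The falls were led by Cyp6a8, a gene that xenobiotics induce and that is raised in DDT-resistant strains. It read 9.66 and 9.95 in stage 14 control, 10.58 and 10.61 in stage 14 dimm, 7.41 and 7.65 in stage 16 control and 8.55 and 8.25 in stage 16 dimm embryos. The stages were apart in both genotypes, with differences of -2.27 ± 0.16 in control (adjusted p = 0.000124) and -2.19 ± 0.16 in dimm embryos (adjusted p = 0.000137), a 4.83-fold and a 4.57-fold fall. Cyp310a1 fell from 10.13 to 10.48 to 8.44 to 8.90, by 1.64 ± 0.18 in control (adjusted p = 0.000639) and 1.62 ± 0.18 in dimm embryos (adjusted p = 0.000633). Cyp309a1 fell from 4.98 to 5.32 to 3.5 to 4.36, by 1.07 ± 0.23 (adjusted p = 0.0101) and 1.28 ± 0.23 (adjusted p = 0.00482), and without replicate 2 of stage 14 control its call in control embryos was lost. These 3 genes also passed in both genotypes after centring.

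Cyp6d5 and Cyp9f2 had small falls whose calls were lost after centring, but not after quantile normalisation. Leaving out some single arrays ended these calls too, as given above. Cyp6d5 read 12.46 to 12.61 at stage 14 and 11.83 to 12.16 at stage 16, and fell by 0.60 ± 0.15 in control (adjusted p = 0.0162, 0.0607 after centring) and 0.50 ± 0.15 in dimm embryos (adjusted p = 0.0289, 0.281 after centring). Cyp9f2 fell in dimm embryos by 0.72 ± 0.17 (adjusted p = 0.0131, 0.073 after centring). In control embryos its difference was -0.49 ± 0.17 (adjusted p = 0.0503), and -0.30 without the low-5' arrays. Cyp6a16 differed by -0.19 ± 0.64 and -0.35 ± 0.64 and did not pass, with stage 16 replicates at 8.26 and 7.14 in control and at 7.15 and 5.43 in dimm embryos. Without the low-5' arrays the differences were -0.74 in control and -1.21 in dimm embryos.

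**Figure D2:**
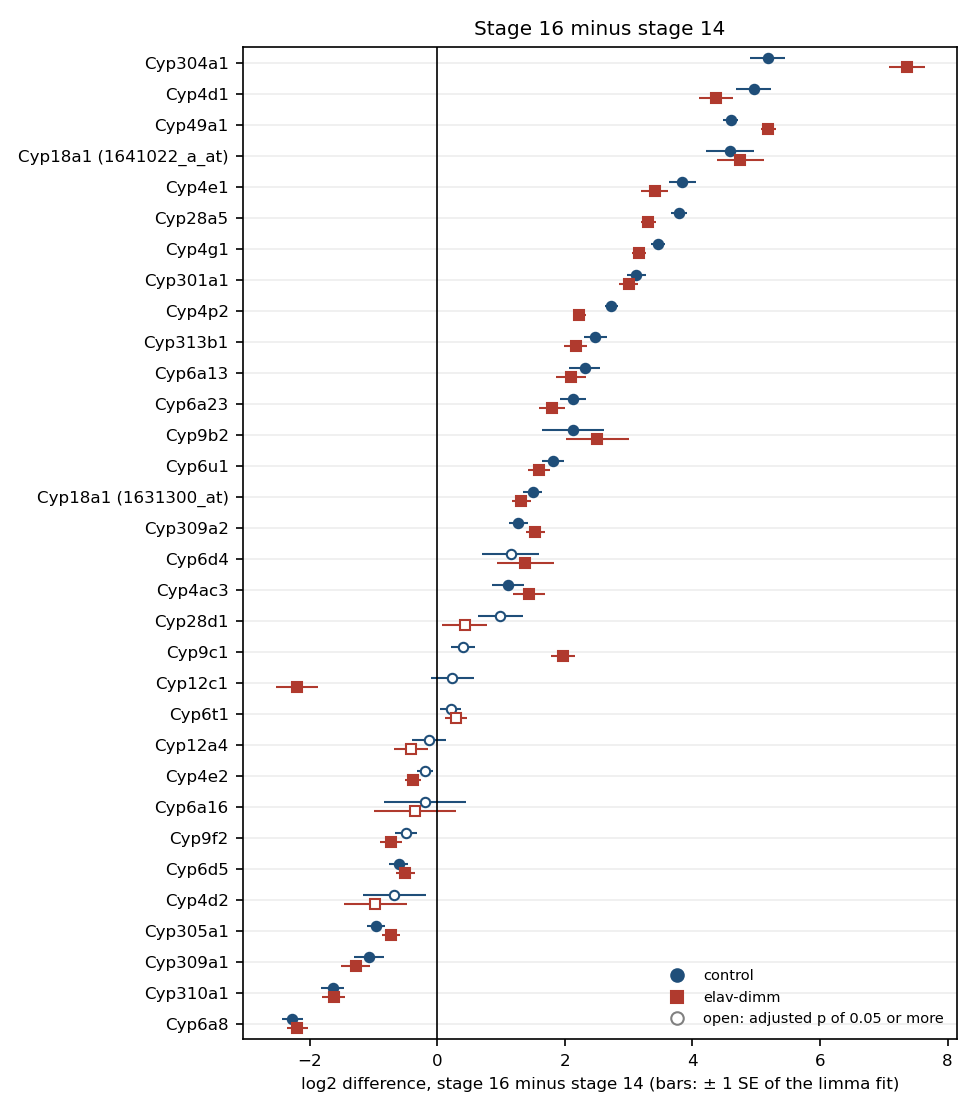
Difference in log2 signal between stage 16 and stage 14 for the 32 tested P450 probe sets, in control (circles) and dimm embryos (squares), with bars of 1 standard error of the limma fit and open symbols for an adjusted p of 0.05 or more. Of the members, 17 lie to the right of 0 with filled symbols in both genotypes and 5 to the left, and Cyp12c1 has its symbols far apart, at 0.24 in control and -2.20 in dimm embryos.

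Averaged over the stages, Cyp6a8, Cyp9c1 and Cyp12c1 were higher in dimm embryos, 3 of 32 probe sets, against 1.5% of all tested probe sets called in either direction and 0.969% called higher. No member was called lower with limma, although 6 had a negative difference and 9 a positive one at an unadjusted p under 0.05. Of all 8258 tested probe sets 994 had an unadjusted p under 0.05. The median over the members was -0.08, beside 0.00 over all tested probe sets. Leaving out any 1 of the 4 stage 14 arrays ended all 3 calls, as did leaving out the dimm replicate 1 array of stage 16. Only Cyp9c1 kept its call when 1 array was left out, and only without the dimm replicate 2 array of stage 16 (1.15, adjusted p = 0.0318). Without the control replicate 1 array of stage 16 the 1 call was Cyp304a1, and without the control replicate 2 array the 2 calls were Cyp304a1 and Cyp28d1. Any such fit leaves a group with a single array. Without both low-5' arrays the differences were 0.90 for Cyp9c1, 0.87 for Cyp304a1 and 0.31 for Cyp49a1. They were negative for Cyp309a2 (-0.57), Cyp4d1 (-0.24), Cyp6a16 (-1.48) and Cyp9f2 (-0.60). On the stage 14 arrays Cyp304a1 and Cyp4d1 lay at 2.18 to 2.19 and Cyp49a1 at 2.27. Almost no spread then remained for a test of these genes. Cyp12c1 passed the filter only through its stage 14 dimm arrays and Cyp9c1 only through its stage 16 dimm arrays, so both had to differ and the count supports nothing about the family.

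Same-numbered arrays of both genotypes deviated together at stage 16 (correlation 0.906) and little at stage 14 (0.155). The fit was repeated with the replicate pair of each stage as a block. With that block 12 members passed, against 7.74% of all tested probe sets, 4.44% of them higher and 3.29% lower. The 6 higher members were Cyp6a8, Cyp9c1, Cyp12c1, Cyp304a1, Cyp49a1 and Cyp4e2. The 6 lower ones were Cyp12a4, Cyp309a2, Cyp4p2, Cyp6a13, Cyp6a16 and Cyp9f2. As Cyp9c1 and Cyp12c1 had passed the filter only through dimm arrays, this count too supports nothing about the family.

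Of the 3 members called in both fits, Cyp6a8 has its values by array in the account of the stage falls above. All dimm arrays exceeded all control arrays at each stage, by 0.79 ± 0.16 at stage 14 and 0.87 ± 0.16 at stage 16, and the average was 0.83 ± 0.11 (1.77-fold, adjusted p = 0.0441, 0.0346 with the block). The call was lost in each of the 8 fits that left out 1 array, with no filter, with array weights and without both low-5' arrays (0.70, adjusted p = 0.0589). Cyp12c1, a mitochondrial member, read 2.40 and 2.82 in stage 14 control, 5.12 and 5.84 in stage 14 dimm, 2.86 and 2.84 in stage 16 control and 2.95 and 3.62 in stage 16 dimm embryos. Its signal was above 4 in the stage 14 dimm arrays alone. The average difference was 1.65 ± 0.23 (adjusted p = 0.0468, 0.0171 with the block), and with values below 4 raised to 4 it was 0.74 and did not pass (adjusted p = 0.124). Without both low-5' arrays it was 1.82 and did not pass (adjusted p = 0.0655).

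Cyp9c1 read 2.39 and 2.39 in stage 14 control, 2.77 and 2.49 in stage 14 dimm, 2.80 and 2.79 in stage 16 control and 4.85 and 4.35 in stage 16 dimm embryos. Only the stage 16 dimm arrays were above 4. The average difference was 1.02 ± 0.13 (adjusted p = 0.0391, 0.0257 with the block), and 0.30 (adjusted p = 0.398) with values below 4 raised to 4. Of the 3 genes, Cyp6a8 was the one with signal above 4 in all groups.

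Several members missed the threshold by little. Cyp4e2 read 11.33 and 11.49 in stage 14 dimm and 11.10 and 10.96 in stage 16 dimm embryos, all above the control arrays given before, with an average difference of 0.61 ± 0.09 (adjusted p = 0.0501, 0.0283 with the block). Cyp6a13 read 4.38 and 3.67 in stage 14 control, 2.99 and 3.01 in stage 14 dimm, 6.44 and 6.23 in stage 16 control and 5.09 and 5.11 in stage 16 dimm embryos. It was lower on all dimm arrays of a stage, on average by -1.13 ± 0.17 (adjusted p = 0.0503, 0.0316 with the block).

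Cyp309a2 read 10.10 and 10.09 in stage 14 control, 9.29 and 9.43 in stage 14 dimm, 11.26 and 11.47 in stage 16 control and 10.73 and 11.07 in stage 16 dimm embryos. Its average difference was -0.60 ± 0.10 (adjusted p = 0.0792, 0.0189 with the block). Cyp9f2 read 10.93 and 10.79 against 10.37 and 10.40 at stage 14, and 10.19 and 10.55 against 9.51 and 9.83 at stage 16, control first, with a difference of -0.59 ± 0.12 (adjusted p = 0.106, 0.0176 with the block). In both genes the control and dimm arrays of a stage did not overlap.

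Cyp6a16 read 7.85 and 7.93 in stage 14 control, 6.85 and 6.43 in stage 14 dimm, 8.26 and 7.14 in stage 16 control and 7.15 and 5.43 in stage 16 dimm embryos, with the higher value of each stage 16 pair on the low-5' array. The average difference of -1.33 ± 0.45 did not pass (adjusted p = 0.323). It passed with the block (adjusted p = 0.0262), and without both low-5' arrays it was -1.48. Cyp12a4 read 6.04 and 6.30 against 5.59 and 5.64 at stage 14 and 6.41 and 5.67 against 5.37 and 5.04 at stage 16, control first. Its difference was -0.70 ± 0.19 (adjusted p = 0.209, 0.0322 with the block). Cyp4p2 differed by -0.38 ± 0.07 (adjusted p = 0.0906, 0.0369 with the block).

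The genotypes did not overlap at either stage for 7 members that were higher in dimm embryos, namely Cyp6a8, Cyp9c1, Cyp12c1, Cyp4e2, Cyp6a23, Cyp6t1 and the Cyp18a1 probe set above 4 at both stages, against 6.78% of all tested probe sets. They did not overlap for 6 members that were lower, namely Cyp6a13, Cyp309a2, Cyp9f2, Cyp12a4, Cyp4p2 and Cyp28d1, against 5.26%. For several of these the order at 1 stage is among values below or near 4. They are Cyp9c1, Cyp6a23 and Cyp4p2 at stage 14 and Cyp12c1 at stage 16. Cyp6t1 was near 4 at both stages, and Cyp6a13 was below 4 on the stage 14 dimm arrays. Cyp9c1, Cyp12c1 and Cyp6t1 had passed the filter only through dimm arrays, so the count of higher members supports nothing about the family. Cyp18a1 differed by 0.27 ± 0.11 on that probe set (adjusted p = 0.412). For the oenocyte gene Cyp4g1 the difference was 0.09 ± 0.08 (adjusted p = 0.84), and for Cyp301a1 it was -0.09 ± 0.10 (adjusted p = 0.914).

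**Figure D3:**
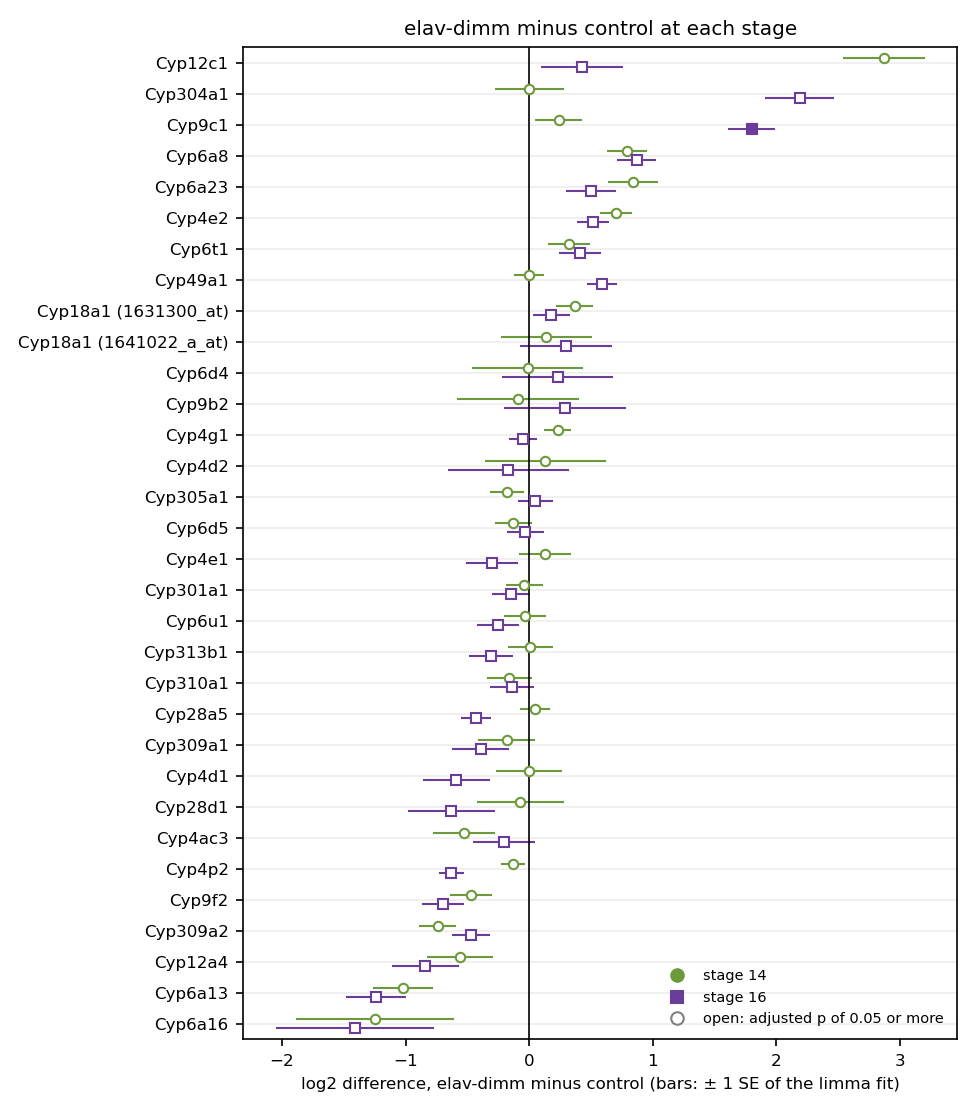
Difference in log2 signal between dimm and control embryos for the tested P450 probe sets at stage 14 and at stage 16, with bars of 1 standard error of the limma fit and filled symbols for an adjusted p under 0.05. Cyp12c1 stands out at stage 14 with 2.87, and Cyp304a1 and Cyp9c1 at stage 16 with 2.19 and 1.8.

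Within stage 14 no member passed, against 0.339% of all tested probe sets. An unadjusted p under 0.05 was found for 7 members and for 661 of all 8258 tested probe sets. The largest difference was that of Cyp12c1, at 2.87 ± 0.33 (adjusted p = 0.0547). With the replicate block 2 members passed, against 1.9% of all tested probe sets: Cyp12c1 (adjusted p = 0.0275) and Cyp309a2, which was 0.74 lower in dimm embryos (difference -0.74, adjusted p = 0.0417). Cyp12c1 had passed the filter only through its stage 14 dimm arrays, so it had to differ here.

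Within stage 16 Cyp9c1 passed, at 1.8 ± 0.19 (adjusted p = 0.0451), as 1 of 32 members against 0.363% of all tested probe sets. Cyp9c1 had passed the filter only through its stage 16 dimm arrays, so it had to differ here and the call supports nothing. Its control arrays, at 2.80 and 2.79, were below 4, and with values below 4 raised to 4 the difference was 0.60 (adjusted p = 0.329). The call was also lost in each fit that left out an array and without both low-5' arrays (1.55, adjusted p = 0.0535). With the block 5 members passed, against 2.65%: Cyp9c1, Cyp304a1 and Cyp49a1 were higher, and Cyp4p2 and Cyp9f2 lower. Cyp304a1, at 6.91 and 7.81 in control and 9.54 and 9.56 in dimm embryos, differed by 2.19 ± 0.28 (4.55-fold, adjusted p = 0.0758, 0.0395 with the block). Without the low-5' arrays its difference was 1.74. Cyp49a1 differed by 0.59 ± 0.12 (adjusted p = 0.178, 0.0393 with the block).

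Whether the dimm effect differed between the stages was tested directly. No member passed in limma, against 0.0121% of all tested probe sets. An unadjusted p under 0.05 was found for 6 members and for 249 of all 8258 tested probe sets. Among the 6 were Cyp9c1 and Cyp12c1. Each of them had passed the filter only through the dimm arrays of 1 stage, so both had to differ here. The difference between the stage effects was 2.18 ± 0.40 for Cyp304a1 (adjusted p = 1), 1.57 ± 0.27 for Cyp9c1 (adjusted p = 0.933) and -2.44 ± 0.47 for Cyp12c1 (adjusted p = 1). Cyp304a1 passed without both low-5' arrays (1.74, adjusted p = 0.0303) and without the control replicate 2 array of stage 16 (2.64, adjusted p = 0.0219).

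Many P450 genes lie side by side in the fly genome, as tandem copies. By the order of genes in RefSeq, 37 of the 81 member genes stood next to another member, in 13 runs of up to 9 genes. Next to each other did not mean detected together. Of the 24 pairs of adjacent members 1 had both genes tested, 11 had 1 of them tested and 12 had none. In all 11 of the 37 genes in runs were tested, and 20 of the 44 genes outside runs.

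The longest run held, in order, Cyp6a22, Cyp6a17, Cyp6a23, Cyp6a19, Cyp6a9, Cyp6a20, Cyp6a21, Cyp6a8 and Cyp317a1. Within it Cyp6a8 had group means of 9.80 and 7.53 in control embryos at stages 14 and 16, while Cyp6a19, Cyp6a9 and Cyp6a21 were at the floor on all arrays. Cyp6a23, in the same run, went from 2.31 to 4.44 in control embryos. Its direction between stages was thus opposite to that of Cyp6a8, and both were higher on all dimm arrays than on the control arrays of the same stage. Whether the probe sets of such copies also bind each other's transcripts was not tested.

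The 1 adjacent pair with both genes tested, Cyp309a1 and Cyp309a2, moved in opposite directions between stages. Cyp309a1 fell from a mean of 5.18 to 4.11 in control embryos and Cyp309a2 rose from 10.10 to 11.37. Other runs had a single measured gene: Cyp4p2 next to Cyp4p1 and Cyp4p3, Cyp4ac3 next to Cyp4ac1 and Cyp4ac2, Cyp12a4 next to Cyp12a5, and Cyp28d1 next to Cyp28d2, where each of these neighbours was at the floor throughout. The run of Cyp6g1, Cyp6g2 and Cyp6t3 had none.

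**Figure D4:**
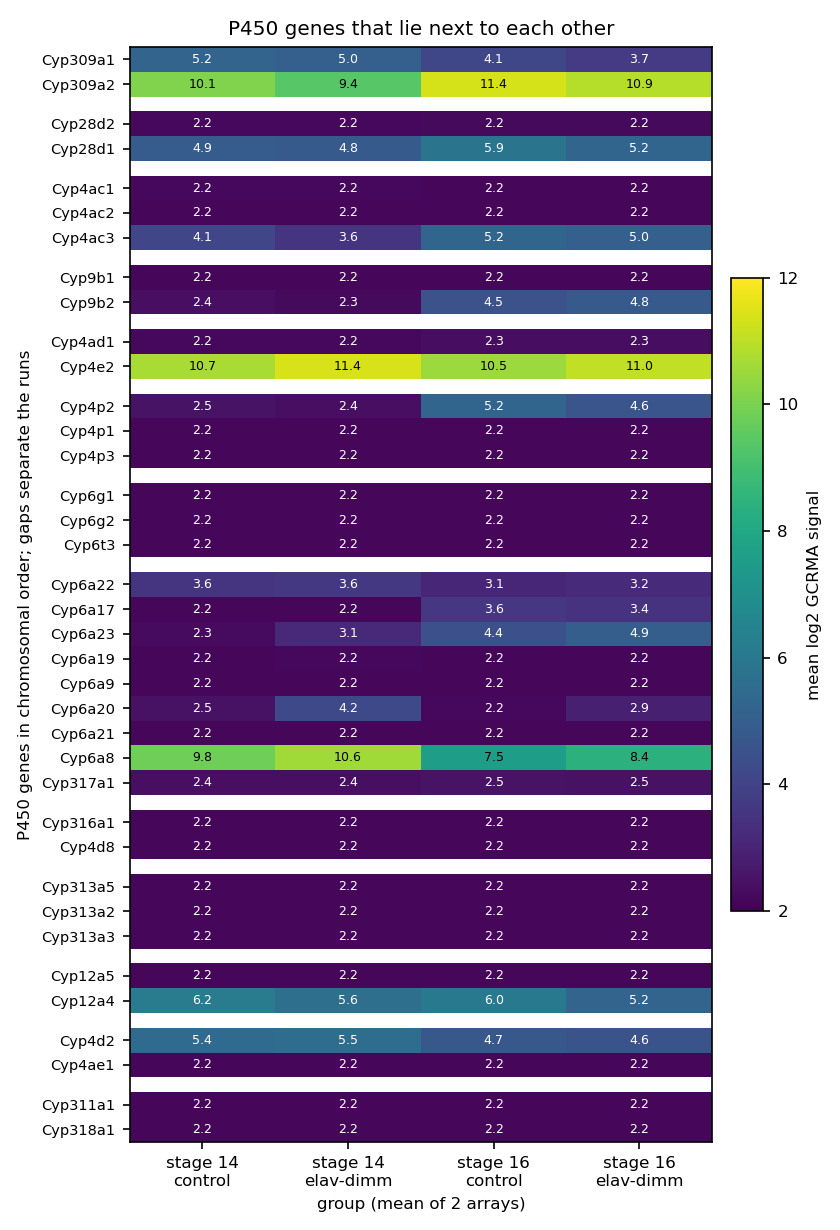
Group means of log2 signal for the genes of the runs of adjacent P450 genes, in genome order within each run, in the 4 groups. In the run of 9 genes Cyp6a8 stands alone at a high signal, beside Cyp6a21 at the floor and Cyp317a1 at 2.39 to 2.48.

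The genes that serve P450 enzymes were measured for comparison. Of 15 genes of haem synthesis and electron transfer 10 had a probe set and 9 were tested. In control embryos 4 rose from stage 14 to stage 16, and none had a negative difference at an unadjusted p under 0.05. These were Alas, the first enzyme of haem synthesis (0.88, adjusted p = 0.00359), Coprox, coproporphyrinogen oxidase (0.49, adjusted p = 0.0155), FeCH, which inserts the iron (0.62, adjusted p = 0.0197), and Cyt-b5-r (1.34, adjusted p = 0.00588). In dimm embryos Alas, Coprox and FeCH rose. The median over the list was 0.28 in control and 0.27 in dimm embryos. The ferredoxins Fdx1 and Fdx2, which pass electrons to mitochondrial P450s, differed by 0.00 and 0.15 in control embryos, and Cyt-b5, an electron donor in the endoplasmic reticulum, by 0.06, and none of the 3 passed.

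With dimm none of the 9 passed on average over the stages, and 1 had an unadjusted p under 0.05. That gene was Cyt-b5-r, at 6.94 and 6.99 in stage 14 control, 7.80 and 7.93 in stage 14 dimm, 8.63 and 7.99 in stage 16 control and 8.55 and 8.10 in stage 16 dimm embryos. The genotypes were apart at stage 14 and overlapped at stage 16. The average difference was 0.46 ± 0.18 (adjusted p = 0.397, 0.0292 with the block).

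Of 11 regulators known to act on P450 genes or on hormone response, all had a probe set and 9 were tested. In control embryos 1 was called higher and 2 lower at stage 16. The one called higher was cnc, the homologue of mammalian Nrf2, but it read 9.53 on all 4 stage 14 arrays and 10.18 on all 4 stage 16 arrays. With no spread between arrays its call is not read as a rise, and 17 of the 8258 tested probe sets likewise held 1 value per stage to 2 decimals. The lower ones were its inhibitor Keap1 (-1.99, adjusted p = 0.000123) and usp, the partner of the ecdysone receptor (-0.56, adjusted p = 0.00307). In dimm embryos ftz-f1 rose, cnc had the values given above, and Keap1, usp, ss and tgo fell. ss and tgo are the homologues of the mammalian aryl hydrocarbon receptor and its partner. The genes Met and gce, which encode juvenile hormone receptors, were at the floor. With dimm none passed on average over the stages, and none had an unadjusted p under 0.05.

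None of the 6 steroid-making P450 genes phm, dib, sad, shd, spo and spok was above 4 on any array. Their highest group mean was that of shd in stage 14 control embryos, at 2.82. Among the P450 genes of ecdysone metabolism given here, the inactivating enzyme Cyp18a1 was thus the one with a signal above 4.

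Markers of the cell types that a whole embryo holds were read beside these results. All 8 epidermis and cuticle markers had a signal and were tested. In control embryos 5 rose between stages and none fell, with a mean level over the list of 9.0 to 9.09 at stage 14 and 10.71 to 11.02 at stage 16. In dimm embryos 6 rose and grh fell, and the mean level went from 9.04 to 9.06 to 10.88 to 11.17. Their part in the rises of Cyp301a1, Cyp4g1 and other members was not tested.

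Of 6 oenocyte markers, 1 of which is Cyp4g1 itself, 4 were tested and desatF and FASN2 were at the floor. Apart from Cyp4g1 none rose, and salm, listed as sal, fell by 0.62 in control embryos. The mean level over the list was 6.87 to 6.91 in stage 14 control, 7.03 to 7.07 in stage 14 dimm, 7.25 to 7.58 in stage 16 control and 7.36 to 7.59 in stage 16 dimm embryos. Of 4 fat body markers with a probe set, apolpp had group means of 14.76 to 14.94 and Fbp1, Lsp2 and Fbp2 were below 4 on all arrays. In the midgut list 5 of 7 were tested and mex1 rose in dimm embryos, and in the Malpighian tubule list 4 of 6 were tested, with cut and Vha55 rising and tsh falling in both genotypes.

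Of the neuronal markers 3 of 5 with a probe set were tested, and elav had group means of 11.57 to 12.22. The neuronal markers brp and para were not above 4 on any array. With dimm, averaged over the stages, the marker lists had 3 calls: Cpr49Ac of the epidermis list was higher by 0.66 ± 0.09 (adjusted p = 0.0441), while repo of the glia list and jhamt of the corpus allatum list had differences of -0.78 ± 0.08 (adjusted p = 0.0256) and -0.35 ± 0.05 (adjusted p = 0.0497). jhamt differed by -0.69 at stage 14 (adjusted p = 0.0407) and was at the floor on all stage 16 arrays. With the block the muscle marker Mlc2 (-0.57, adjusted p = 0.0172), mex1 of the midgut list (-0.42, adjusted p = 0.0284) and moody of the glia list (-0.33, adjusted p = 0.0398) were lower too. The glia list had a mean level of 10.87 to 10.88 in control and 10.68 to 10.75 in dimm embryos at stage 14, and of 10.40 to 10.53 and 10.17 to 10.21 at stage 16. Its other markers differed on average by -0.18 (nrv2), 0.04 (loco) and 0.16 (wrapper) and passed in neither fit. The other tested midgut markers differed by 0.01 (GATAe), 0.15 (srp), 0.24 (Ptx1) and -0.08 (fkh) and passed in neither fit. The other epidermis markers ranged from -0.21 (grh) to 0.24 (TwdlT) and passed in neither fit. Of the 5 muscle markers, Mlc2 was the 1 with a probe set. The part of the markers in the dimm differences of the P450 members was not tested.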

How the data were processed

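Total RNA of dechorionated whole embryos was hybridised to Affymetrix Drosophila Genome 2.0 arrays. The authors deposited log2 signals, 1 for each probe set and array. The submitters' processing notes name GCRMA 2.22.0, a method of background correction, quantile normalisation and summary, with R 2.12.1 and limma (no version). Every column belonged to a sample of the series. Precision is limited by the few arrays.

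Of 18952 probe sets, 183 controls were left out. The platform annotation named 1 gene for 13646 and several for 402. All 83 members matched a gene of RefSeq Release 6, used for names and gene order only. The 8258 probe sets above 4 on 2 or more of 8 arrays entered the tests. Group means were fitted to all arrays with limma 3.58.1 (R 4.3.3) with default moderation (4 residual degrees of freedom), and p-values were adjusted by Benjamini-Hochberg over all tested probe sets, with a threshold of 0.05. Errors are standard errors of the fit. The scripts were tested on simulated data.

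Arrays with the same replicate number deviated from their group means together across genotypes at stage 16 (correlation 0.906) and little at stage 14 (0.155). For the dimm comparisons the block took the numbers to pair the arrays at both stages. It left 2 residual degrees of freedom. Across stages the correlations were -0.0241 to 0.134, and the main fit did not pair the numbers there. For the stage changes the block was instead a single replicate-number effect over all arrays. It was run as an alternative, although those correlations gave little ground for it.

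Members and lists were chosen with earlier results of these data known. Named were members past the threshold in any of 6 contrasts, the 12 with the highest mean, the 5 largest differences each way per contrast, 23 fixed gene names whatever their result, those nearest to 4, and 3 pathway lists. Another 12 marker lists were read as a check. Alternatives covered the filter, the floor, scaling, normalisation, the block, array weights, and leaving out arrays.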

Additional observations from a re-analysis of the deposited data

How the results depend on the processing

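The stage changes were the more stable of the results. Leaving out each array in turn gave 19 to 24 called members for the stage change in control embryos (22 in the report) and 23 to 28 in dimm embryos (27), and the replicate block gave 25 and 27. With no filter the counts were 67 and 73. Those fits included the 40 member probe sets within 0.1 of the floor on all 8 arrays. The floor was 2.182 on the stage 14 and 2.186 on the stage 16 arrays. For dimm averaged over the stages (3 in the report), the replicate block gave 12 members, leaving out both stage 16 replicate 1 arrays 7, no filter 0 and array weights 0, and leaving out each array gave 0 to 2. At stage 14 (0) the block gave 2 and array weights 8. At stage 16 (1) the block gave 5, leaving out both stage 16 replicate 1 arrays 3, and no filter, the stricter filter, values below 4 raised to 4, quantile normalisation, the arrays of the stage alone, array weights and trended robust moderation gave 0 each, and leaving out each array 0 to 1. For the difference of the dimm effect between stages (0), leaving out both stage 16 replicate 1 arrays gave 1 and leaving out each array 0 to 1. Of the member differences compared, 9 changed sign under some setting, and 0 of these were called. For the stage change in control embryos, that of Cyp12a4 (-0.13) was 0.08 after centring, 0.09 after quantile normalisation and -0.50 to 0.24 with each array left out, that of Cyp6a16 (-0.19) was 0.03, 0.08 and -0.74 to 0.37, and that of Cyp4e2 (-0.19) was 0.02 after centring. In dimm embryos that of Cyp6a16 (-0.35) was -1.21 to 0.51 with each array left out. For dimm averaged over the stages, Cyp301a1 (-0.09) was 0.03 without both stage 16 replicate 1 arrays, and the second Cyp18a1 probe set (0.22) was -0.02 to 0.45 with each array left out. The difference between the stage effects was -1.12 to 0.01 for Cyp28d1 (-0.56), -0.28 to 1.04 for Cyp9b2 (0.38) and -0.01 to 0.67 for Cyp4ac3 (0.33) with each array left out. Fits without both stage 16 replicate 1 arrays kept a single array of each genotype at that stage. The causes of the changes between settings were not tested. Signals near the floor limit what the arrays can show for the 51 untested probe sets.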
